A study of Zea mays with 2 samples.

Results

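Ribosome biogenesis and nucleolar proteins were examined in the endosperm of maize (Zea mays) kernels, the tissue that stores starch and protein for the seedling. The set was taken by words in the deposited gene descriptions (nucleolar terms, ribosome biogenesis, processing or methylation of ribosomal RNA, fibrillarin, pescadillo, RNA polymerase I) together with a level of 1 or more in either library. It held 18 of the 41406 genes listed, and 18 genes matched the words before the level was applied. The words fibrillarin, pescadillo, U3 small, snoRNP and RNA polymerase I matched 0 genes, and 20161 of the 41406 genes carried no description. The 18 genes are therefore those with such a description, and they do not stand for the whole machinery.

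Both groups were endosperm of kernels 12 days after pollination. The first was 1 library with the genotype entry dek40, a name of the defective kernel class of mutants, and the second was 1 wild-type library. The series title and design text name dek41 instead, so the mutant is called the library labelled dek40. The sources used here do not give the allele, the inbred background or how many kernels were pooled.

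Ribosomes are assembled in the nucleolus, where RNA polymerase I transcribes a long precursor of ribosomal RNA. Small nucleolar ribonucleoproteins (snoRNPs) guide its cleavage and chemical modification, while GTPases, RNA helicases and transient assembly factors build the small (40S) and large (60S) subunits. Nucleolins are abundant RNA-binding proteins of the nucleolus that act on ribosomal RNA genes and on the precursor RNA. In the cereal endosperm this machinery supplies the ribosomes for a phase of very high storage protein synthesis.

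Levels are given as deposited, in RPKM for dek40 and FPKM for the wild type, both per kilobase of gene. The median gene was 1.34-fold higher in dek40 as deposited, a log2 shift of 0.42. All ratios below are dek40 over wild type, and are scaled so that this median ratio is 1 unless given as deposited. The implied totals were 14218436 for dek40 and 15669149 for the wild type, up to a common factor, and whether they count reads or read pairs is not known. The smallest whole reads behind single genes of the set ranged between 13 and 11035 in dek40 and between 12 and 8416 in the wild type. Each interval is a 95% Clopper-Pearson counting interval without a pseudocount. With no replicate of either genotype, no difference has a replicate check and none was tested. In bulk tissue, fewer cells of a type and less RNA per cell cannot be told apart.

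Storage genes that mark the endosperm were abundant in both libraries: 27 starchy endosperm markers summed to 54988 RPKM in dek40 and 282230 FPKM in the wild type, and all 27 were lower in dek40. Markers of the basal transfer layer summed to 375 RPKM in dek40 and 1745 FPKM in the wild type, with 7 of 9 lower. The 19 embryo markers summed to 683 RPKM in dek40 and 887 FPKM in the wild type. Of the 16 that reached a level of 1, 1 was higher and 5 were lower. Aleurone markers summed to 8167 RPKM in dek40 and 2932 FPKM in the wild type, with 1 of 6 higher and 1 lower. The 21 green tissue markers summed to 30 RPKM in dek40 and 43.2 FPKM in the wild type. Of the 11 that reached a level of 1, 1 was higher and 3 were lower. No gene of the whole list was at 0 in either library, so the absence of zeros among these markers carries no information. The part of these marker shifts in the ratios below was not tested.

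The nucleolar set as a whole stayed near the typical gene, with contrasts inside it. Of the 18 genes, 2 (11.1%) were 2-fold or more higher in dek40, 1 (5.56%) was lower and 15 lay within 2-fold. Over all 28178 genes tested, 6.33% were higher and 4.99% were lower, so the counts of the set were close to the background. As deposited, 4 of the 18 genes were higher and 0 were lower, against 14.7% higher and 2.65% lower over all genes. With sums made equal without zein genes the counts were again 4 and 0, against 10.6% higher and 3.32% lower. A nucleolin gene and a low-level gene for a nucleolar RNA helicase were the higher ones, and another nucleolin gene was the lower one. The median log2 ratio of the set was 0.13, against 0.02 over all genes tested. In the set 13 of 18 ratios were above 0, against 51.9% of all genes tested.

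**Figure D1:**
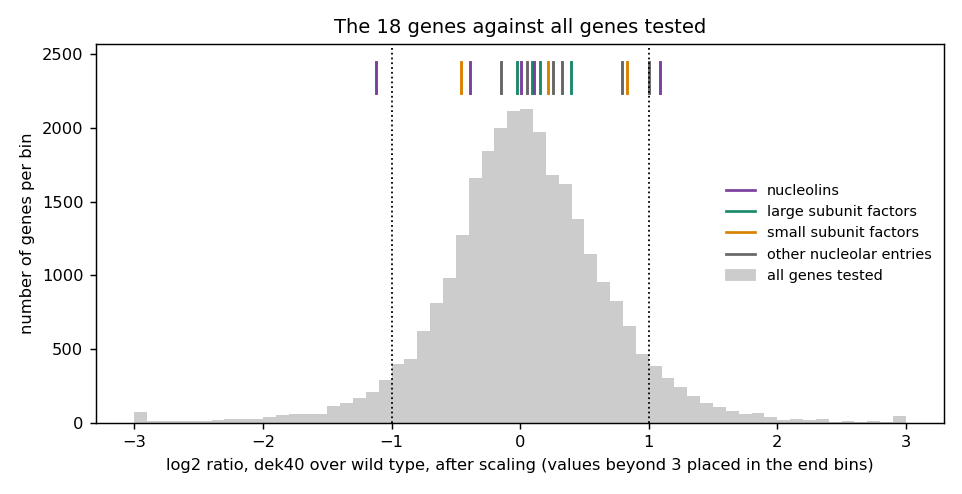
Log2 ratio of dek40 over wild type after scaling (x axis) against the number of genes per bin (y axis, grey bars, 28178 genes tested), with a coloured tick for each of the 18 genes above the bars and dotted lines at 2-fold. Most ticks sit within the central mass of the bars, and 2 lie at or beyond the upper line and 1 beyond the lower line.

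Summed over the set, the 18 genes reached 2215 RPKM in dek40 and 1454 FPKM in the wild type. That was 0.16% of the summed values of all genes in dek40 and 0.101% in the wild type. The log2 ratio of the sums was 0.19 after scaling. Without the nucleolin gene GRMZM2G003897 the sums were 1643 RPKM in dek40 and 1253 FPKM in wild-type endosperm, a log2 ratio of -0.03 after scaling. That gene had the highest dek40 level of the set and a ratio above that of the sums. Leaving it out therefore had to lower the ratio of the sums. As deposited that log2 ratio was 0.61 with the gene and 0.39 without it, where the median gene was shifted by 0.42. Genes with zein in their description took 2.49% of the summed values in dek40 and 16.1% in the wild type. With those genes left out of the total, the share of the set was 0.164% in dek40 and 0.12% in the wild type.

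**Figure D2:**
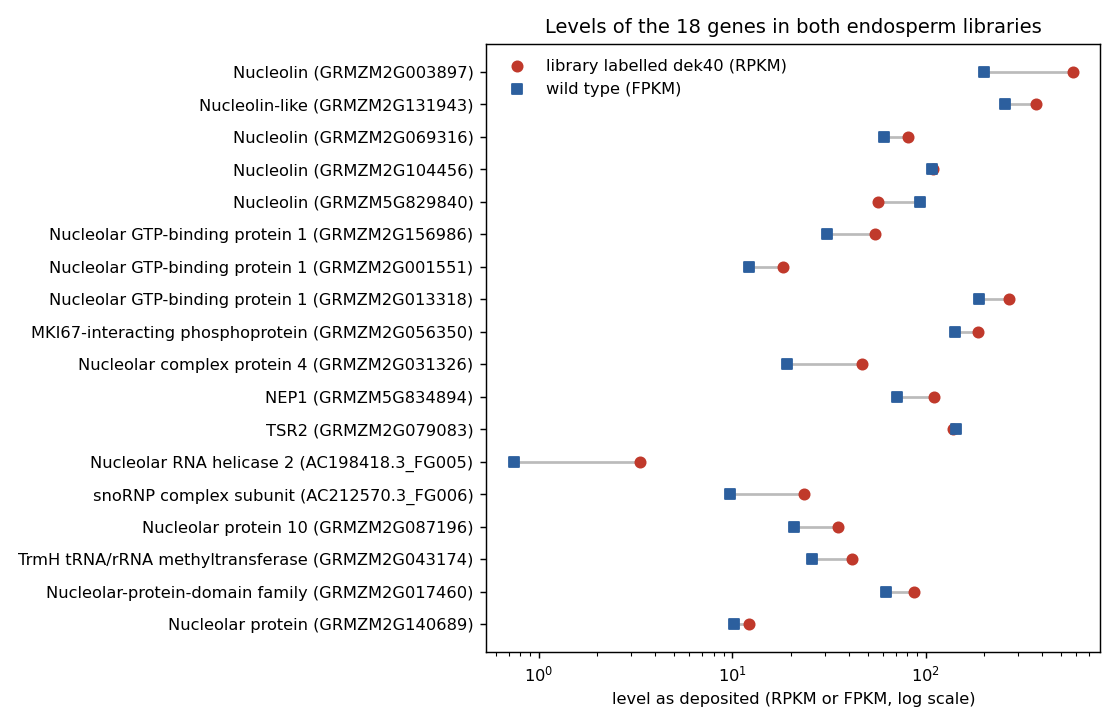
Level of each of the 18 genes (rows) in the library labelled dek40 (red circles, RPKM) and the wild type (blue squares, FPKM), as deposited, on a log axis. The nucleolin GRMZM2G003897 reaches 573 RPKM in dek40, against 201 FPKM in the wild type, while the nucleolin GRMZM5G829840 and TSR2 are the only rows with the red circle to the left.

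The nucleolins were the most abundant family and the one that diverged most. GRMZM2G003897 stood at 573 RPKM in dek40 and 201 FPKM in the wild type. Its log2 ratio was 1.09 (1.00 to 1.18), a 2.12-fold higher level, and it ranked 280 among the 41406 genes by level in dek40 and 758 in the wild type. It was the most abundant gene of the set in dek40. In the wild type that place belonged to the nucleolin-like gene GRMZM2G131943, at 369 RPKM in dek40 and 256 FPKM in the wild type, with a log2 ratio of 0.11 (0.07 to 0.15).

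At the other end, the nucleolin gene GRMZM5G829840 was lower in dek40, at 56.5 RPKM against 93.1 FPKM in the wild type. Its log2 ratio was -1.12 (-1.50 to -0.79), and its rank by level was 3310 in dek40 and 1573 in the wild type. As deposited the ratio was -0.71, short of 2-fold in the same direction, so GRMZM5G829840 was low in dek40 on both scales. The RefSeq gene table (assembly Zm-B73-REFERENCE-NAM-5.0) files this identifier with GRMZM2G052569 under the same entries. GRMZM2G052569, which has no informative description, stood at 21.7 RPKM in dek40 and 22.5 FPKM in wild-type endosperm, a log2 ratio of -0.45 (-0.73 to -0.22). The split of reads between them is uncertain. GRMZM2G052569 had the smaller difference, so a joint level of both identifiers would differ less than that of GRMZM5G829840 alone. Whether it would reach 2-fold was not worked out, so the lower call holds for GRMZM5G829840 taken by itself.

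The remaining nucleolins lay between these extremes. GRMZM2G104456 was at 109 RPKM in dek40 and 107 FPKM in wild-type endosperm, a log2 ratio of -0.39 (-0.54 to -0.26). GRMZM2G069316 was at 81.3 RPKM in dek40 and 60.4 FPKM in wild-type endosperm, a log2 ratio of 0.01 (-0.24 to 0.26). The 5 genes thus had a median ratio of 0.01, with 1 higher and 1 lower. Over all genes tested, 6.33% were higher and 4.99% were lower.

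Ratios between genes within a library do not depend on the scaling between libraries. GRMZM2G003897 was 10.1 times the level of GRMZM5G829840 in dek40 and 2.16 times in the wild type. This pair holds the highest and the lowest nucleolin ratio, so the contrast restates those ratios and adds no separate support. GRMZM2G003897 made up 48.2% of the summed nucleolin level in dek40 and 28% in the wild type. The share of GRMZM5G829840 was 4.75% in dek40 and 13% in the wild type, and that of GRMZM2G104456 was 9.17% in dek40 and 14.9% in the wild type. The summed nucleolin level was 1189 RPKM in dek40 and 717 FPKM in wild-type endosperm, a log2 ratio of 0.31, and without GRMZM2G003897 it was 616 RPKM in dek40 and 516 FPKM in wild-type endosperm, a log2 ratio of -0.17.

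**Figure D3:**
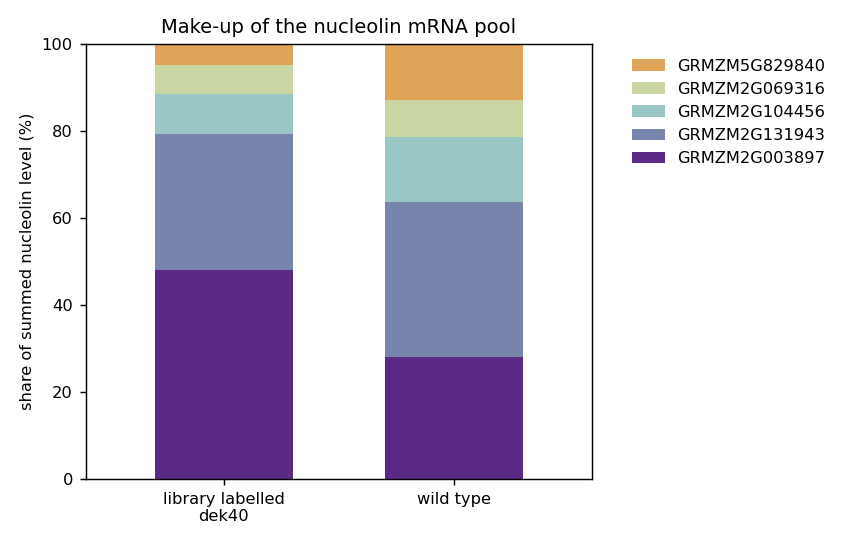
Share of the summed nucleolin level (y axis, percent) held by each of the 5 nucleolin genes, in the library labelled dek40 (left bar) and the wild type (right bar). GRMZM2G003897 takes 48.2% in dek40 and 28% in the wild type, while GRMZM5G829840 takes 4.75% in dek40 and 13% in the wild type.

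The 4 factors of the large subunit in the set stayed within 2-fold, with log2 ratios between -0.03 and 0.39. Nucleolar GTP-binding protein 1 is a GTPase that in yeast is needed to mature precursors of the large subunit, and 3 maize genes carried this description. The main one, GRMZM2G013318, was at 270 RPKM in dek40 and 189 FPKM in wild-type endosperm, a log2 ratio of 0.09 (0.02 to 0.16). GRMZM2G156986 was at 54.5 RPKM in dek40 and 30.8 FPKM in wild-type endosperm, a log2 ratio of 0.39 (0.29 to 0.52). GRMZM2G001551 was at 18.4 RPKM in dek40 and 12.2 FPKM in wild-type endosperm, a log2 ratio of 0.16 (-0.06 to 0.40). Unlike the nucleolins, these genes kept their order and nearly their proportions: GRMZM2G013318 made up 78.8% of their sum in dek40 and 81.5% in the wild type. That difference between the families was not tested. The gene described as similar to the MKI67 FHA domain-interacting nucleolar phosphoprotein (GRMZM2G056350), whose human counterpart binds the proliferation protein Ki-67, was at 186 RPKM in dek40 and 141 FPKM in the wild type. Its log2 ratio was -0.03 (-0.17 to 0.12), the closest to 0 in the set after that of GRMZM2G069316.

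Factors of the small subunit ranged on both sides of 0. Nucleolar complex protein 4 (GRMZM2G031326), whose yeast counterpart acts in assembly and export of the small subunit, was at 46.8 RPKM in dek40 and 19.2 FPKM in the wild type. Its log2 ratio was 0.83 (0.72 to 1.02), short of 2-fold after scaling and 1.24 as deposited, and its rank by level was 3956 in dek40 and 6685 in the wild type. NEP1 (GRMZM5G834894), in yeast a methyltransferase of the RNA of the small subunit, was at 110 RPKM in dek40 and 70.8 FPKM in wild-type endosperm, a log2 ratio of 0.22 (0.10 to 0.34). TSR2 (GRMZM2G079083), in yeast a chaperone that delivers a ribosomal protein to the small subunit, was at 139 RPKM in dek40 and 143 FPKM in the wild type. Its log2 ratio of -0.46 (-0.58 to -0.35) was the second lowest of the set, and as deposited it was -0.05. TSR2 was above NEP1 in both libraries, by a smaller margin in dek40.

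A subunit of the small nucleolar ribonucleoprotein complex (AC212570.3_FG006) was at 23.4 RPKM in dek40 and 9.7 FPKM in the wild type. Its log2 ratio was 0.79 (0.63 to 1.08), and 1.19 as deposited. Like Nucleolar complex protein 4, it was within 2-fold after the median scaling, and past it both as deposited and with sums made equal without zein genes (log2 ratios of 1.04 for AC212570.3_FG006 and 1.09 for GRMZM2G031326).

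The gene for Nucleolar RNA helicase 2 (AC198418.3_FG005), a name used in human for an RNA unwinding enzyme of the nucleolus, was the least abundant of the set, at 3.34 RPKM in dek40 and 0.744 FPKM in the wild type. Its log2 ratio was 1.00 with the pseudocount and 1.75 without it (0.85 to 2.75), on at least 53 reads in dek40 and 13 in the wild type. It met the level of 1 through dek40 alone, so a member of this kind had to lie above its wild-type value. Restricting the set to levels of 10 or more left 17 genes, of which 1 was higher and 1 was lower, against 6.4% higher and 6.2% lower of the 12181 genes tested at that level.

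The remaining entries stayed within 2-fold. Nucleolar protein 10 (GRMZM2G087196), a name shared by different proteins and so given no role, was at 35.3 RPKM in dek40 and 20.8 FPKM in wild-type endosperm, a log2 ratio of 0.33 (0.10 to 0.59). The TrmH family methyltransferase (GRMZM2G043174), of a bacterial-type family that methylates transfer or ribosomal RNA, was at 41.4 RPKM in dek40 and 25.8 FPKM in wild-type endosperm, a log2 ratio of 0.25 (0.03 to 0.49). A gene of a nucleolar-protein-domain family (GRMZM2G017460) was at 86.5 RPKM in dek40 and 62.4 FPKM in wild-type endosperm, a log2 ratio of 0.05 (-0.10 to 0.20).

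The entry described only as nucleolar protein (GRMZM2G140689) was at 12.2 RPKM in dek40 and 10.2 FPKM in wild-type endosperm, a log2 ratio of -0.15. Its interval, -1.41 to 1.10, was the widest of the set, since its ratio can be made with as few as 13 reads in dek40 and 12 in the wild type. It shares a RefSeq entry with GRMZM2G020418, which was at 6.73 RPKM in dek40 and 4.99 FPKM in the wild type.

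**Figure D4:**
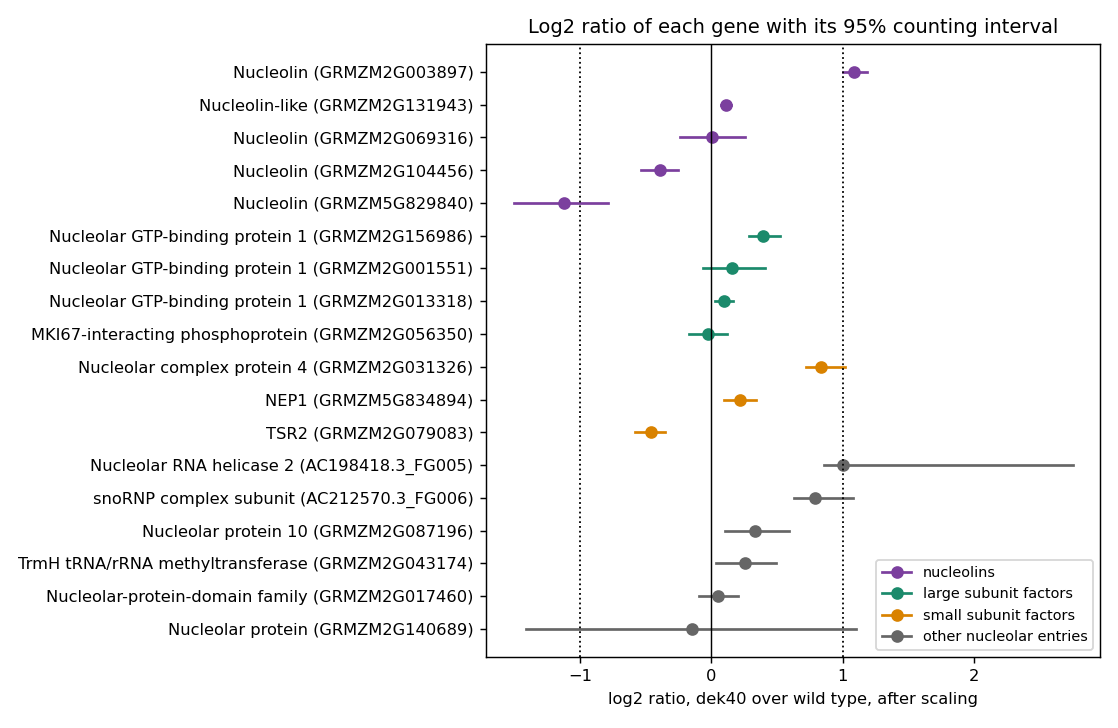
Log2 ratio of dek40 over wild type after scaling (points, with a pseudocount of 1) for the 18 genes, ordered by role, with 95% counting intervals without a pseudocount (lines) and dotted lines at 2-fold. The nucleolins spread between -1.12 and 1.09, whereas the 4 large subunit factors lie between -0.03 and 0.39.

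Genes that make ribosomes under other names were described by a further list. This list of assembly factors held 21 genes, of which 1 was higher and 0 were lower, against 6.33% and 4.99% of all genes tested. The median log2 ratio was 0.18, against 0.02 over all genes tested, and 19 of the 21 ratios (90.5%) were above 0, against 51.9% of all genes tested. The list includes 6 subunits of the exosome, the complex that trims precursor RNA, and 2 ribosome recycling factors, which act in translation rather than assembly. The higher gene was one for the exosome subunit RRP40 (GRMZM5G802854), at 8.93 RPKM in dek40 and 2.76 FPKM in wild-type endosperm, a log2 ratio of 1.03 (0.67 to 1.91). The other RRP40 gene (GRMZM2G173989) was at 28.8 RPKM in dek40 and 19 FPKM in wild-type endosperm, a log2 ratio of 0.18 (-0.27 to 0.65). A gene for NHP2-like protein 1 (GRMZM5G868062), a snoRNP and spliceosome protein, was at 189 RPKM in dek40 and 77.3 FPKM in wild-type endosperm, a log2 ratio of 0.86 (0.72 to 1.02). The more abundant NHP2-like gene (GRMZM2G140799) was at 506 RPKM in dek40 and 340 FPKM in wild-type endosperm, a log2 ratio of 0.15. The ribosome recycling factor genes were at 50.8 RPKM in dek40 and 22.1 FPKM in wild-type endosperm (GRMZM2G018689, log2 ratio 0.76) and at 32.9 RPKM in dek40 and 31.5 FPKM in wild-type endosperm (GRMZM2G159250, log2 ratio -0.35). Each of these families was named because a copy was among the 3 highest ratios of the list. A second copy with a lower ratio was therefore favoured by the choice, and no difference between copies was tested.

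Among 22 entries for RNA polymerases, 1 was higher, 0 were lower and the median was 0.00. The shares over all genes tested were 6.33% higher and 4.99% lower. Some entries were coactivators or factors rather than subunits, and some descriptions named neither a polymerase class nor a compartment. The higher gene was a subunit of polymerase II (GRMZM2G020142), at 22.7 RPKM in dek40 and 7.87 FPKM in wild-type endosperm, a log2 ratio of 1.02. Subunits shared by polymerases I, II and III were described in 4 genes, whose ratios lay between -0.19 and 0.15. The most abundant was that of 17.1 kDa (GRMZM2G034326), at 425 RPKM in dek40 and 345 FPKM in wild-type endosperm, a log2 ratio of -0.12.

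Proteins of the 40S and 60S subunits, the components that the assembly factors bring together with ribosomal RNA, had a median of 0.04 over 201 genes, with 4 higher and 1 lower. These counts were 1.99% and 0.498%, below the 6.33% and 4.99% of all genes tested. This list took 4 genes that are also described as mitochondrial, and without them the median over 197 genes was again 0.04, with 4 higher and 1 lower. Their middle ratios lay between -0.11 and 0.26 (lower and upper quartiles), and those of the 18 nucleolar genes between -0.02 and 0.38. Organellar ribosomal proteins had a median of 0.17 over 48 genes, with 1 higher (2.08%) and 0 lower, also below those shares of all genes. None of these medians came near 2-fold, and no difference between lists was tested.

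**Figure D5:**
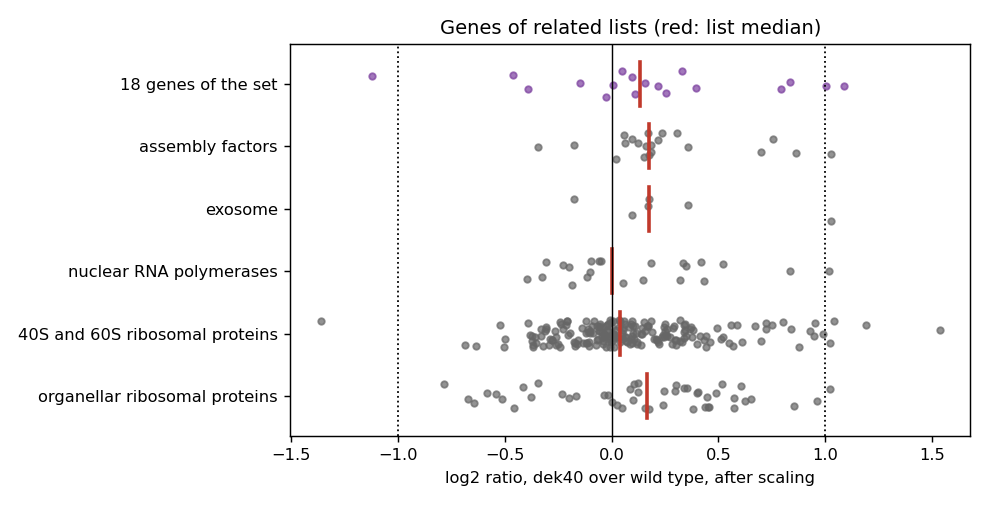
Log2 ratio of dek40 over wild type after scaling for the 18 genes and 5 related lists (rows), 1 point per gene, with the list median in red and dotted lines at 2-fold. Medians lie between 0.00 and 0.18, and the exosome genes also appear among the assembly factors.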

How the data were processed

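Messenger RNA of maize endosperm was compared between 1 library labelled dek40 and 1 wild-type library. The authors deposited an RPKM value (reads per kilobase, relative to all mapped reads) per gene for dek40 and an FPKM value (the same with fragments) for the wild type, per the file headers. Bowtie2 2.1.0 and the build B73 RefGen v3 are named in the submitters' processing notes. How reads were counted, with which annotation and filters, the sources used here do not say.

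The ratios of the deposited values equalled whole-number fractions times 1.10 for all 41406 genes, within a relative tolerance of 1e-12. This implies totals in the proportion 14218436 for dek40 to 15669149 for the wild type. The smallest whole numbers giving each ratio, which sum to 71.4% of each total, served as lower bounds of the reads behind a gene and for exact Clopper-Pearson 95% intervals, which cover counting error only. The dek40 values were multiplied by 0.747, so that the median ratio of 25115 genes at 1 or more in both libraries became 1. Log2 ratios were taken after adding 1 to the scaled dek40 value and 1 to the wild-type value, a scale that understates differences of low genes. Higher and lower mean a ratio of 2-fold or more in a gene reaching a level of 1 after scaling. No test was possible with 1 library per genotype.

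All 18 genes of the set are named, so the rule for named genes (past 2-fold, the extremes, the most abundant) left none out. Of the related lists, the 3 highest and 2 lowest ratios at a level of 5 or more were eligible, and other genes named were chosen after their values were seen. The members and lists were chosen with earlier results of these data known. Alternatives covered the scaling, pseudocount, level minimum, fold and membership. The ratio recovery was tested on simulated data. Python 3.11.15, numpy 2.4.6, pandas 2.3.3 and scipy 1.17.1 were used.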

Additional observations from a re-analysis of the deposited data

How the results depend on the processing

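The scaling moved the split of higher and lower genes. With values as deposited, 4 of the 18 genes were higher and 0 lower, with a median log2 ratio of 0.54, against 14.7% higher and 2.65% lower over all genes. With sums made equal without zein genes, 4 were higher and 0 lower, against 10.6% and 3.32% of all genes, and the median was 0.39. The genes above 0 numbered 13 after scaling on the median, 16 as deposited, 14 with scaling on genes at 10 or more and 15 with equal sums, where the median of all genes was 0.02, 0.38, 0.08 and 0.25. Each of these scalings multiplies all dek40 values by a single factor, which barely alters the order of abundant genes. That GRMZM2G003897 stayed the highest of the abundant genes and GRMZM5G829840 the lowest gene therefore follows from the method. The count of higher genes was 1 with a pseudocount of 5, and 1 at a level minimum of 5 or of 10 (the minimum of 10 was added after the data were seen), and in each case AC198418.3_FG005 was no longer counted. At a 1.5-fold threshold 4 were higher and 1 lower, against 17.2% and 13.5% of all genes. No gene past 2-fold changed sign under any alternative run. The alternative scalings all raised the dek40 values and the other settings cannot reverse a sign, so only GRMZM5G829840 could have done so. No paired analysis was possible because each genotype has 1 library. No replicate could be left out for the same reason.

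The widest counting intervals were those of GRMZM2G140689 and AC198418.3_FG005. They rest on lower bounds of the reads, so they need not reflect low depth. Promoter words were planned, and sequences were not analysed here.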

Other observations

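Maize histone deacetylases of the HD2 type were first purified as nucleolar proteins, and their descriptions lack the words that chose the set. HDT2 (GRMZM2G100146) was at 573 RPKM in dek40 and 298 FPKM in wild-type endosperm, a log2 ratio of 0.52 (0.44 to 0.60). HDT3 (GRMZM2G159032) was at 456 RPKM in dek40 and 207 FPKM in wild-type endosperm, a log2 ratio of 0.72 (0.65 to 0.78). Both stayed within 2-fold after scaling, and HDT3 was past it as deposited, at 1.14. These levels are of the order of the most abundant nucleolins.

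Other genes outside the set have names tied to ribosomal RNA. The helicase genes DRS1 (GRMZM5G804064), at 33.6 RPKM in dek40 and 16.8 FPKM in the wild type, and spb4 (GRMZM2G303752), at 15.7 RPKM in dek40 and 9.09 FPKM in the wild type, had log2 ratios of 0.55 and 0.34. In yeast both helicases act on the large subunit. Ribosomal RNA methyltransferase 1 (GRMZM2G083745) was at 32 RPKM in dek40 and 16 FPKM in wild-type endosperm, a log2 ratio of 0.55 (0.35 to 0.81). Ribosomal large subunit pseudouridine synthase B (GRMZM2G315806), of a bacterial-type name, was at 15.9 RPKM in dek40 and 12 FPKM in wild-type endosperm, a log2 ratio of -0.02 (-0.51 to 0.47). Ribosome-binding factor A (GRMZM2G115156), a bacterial-type assembly factor, was at 19.8 RPKM in dek40 and 23.4 FPKM in wild-type endosperm, a log2 ratio of -0.63 (-0.96 to -0.37). These genes were chosen after their values were seen, and none was 2-fold or more apart after scaling.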
